A study of Mus musculus with 12 samples.

Results

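The interferon-response genes are 48 mouse genes, taken from a list of gene names and matched to the Ensembl identifiers, of 49671 genes counted in the files. They were divided by role into 22 antiviral effectors, 8 regulators and sensors of the pathway, 9 interferon-inducible GTPases, 2 chemokines, 4 genes of the Ifi200 cluster and 3 Schlafens. All 48 matched a gene identifier and all 48 passed the filter on low counts, so none was left out of the tests. Their levels were compared between genotypes in 2 kinds of regulatory T cells (Tregs), a CD4+ lineage that holds other immune cells in check.

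The 12 libraries are stranded mRNA libraries from C57BL/6 mice aged 8 weeks, 3 in each of 4 groups. Tregs sorted fresh (nTregs) came from WT mice and from mice labelled Gclc mutant, and induced Tregs (iTregs) were made in culture from naive CD4+ T cells of WT and of Gclc mutant mice. Gclc codes for the catalytic part of the enzyme that starts glutathione synthesis. The labels do not give the mutant allele, the cells that carry it, the sort gates or the culture conditions of the iTregs. They also do not say whether each library is a different mouse or culture, and the p-values therefore reflect only the spread between the libraries, which may be technical.

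Interferons are cytokines released on infection. Type I interferons act through the receptor chains Ifnar1 and Ifnar2 and the kinases Jak1 and Tyk2, and lead to binding of a complex with STAT2 and IRF9 at a DNA element called the ISRE. Interferon-γ acts through Ifngr1 and Ifngr2 and a different DNA element called GAS. The induced proteins block viral replication, sense foreign nucleic acid, attack vacuoles that hold parasites, or attract T cells, and many T cells express part of the programme without infection.

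Library totals ran from 28707579 to 39886130 counts. The targeted gene, Gclc, stood at 78.7, 79.0 and 70.8 CPM (the counts-per-million unit, on TMM-scaled library sizes) in the WT nTreg libraries and at 45.8, 41.7 and 43.2 CPM in the mutant ones. In iTregs it stood at 56.5, 53.2 and 51.9 CPM in WT against 18.8, 21.0 and 19.0 CPM in the mutant, so each mutant library was below all WT libraries of its kind. The Treg markers Foxp3, Il2ra, Ctla4, Tnfrsf18, Cd4 and Cd3e were present in every library, and Foxp3 itself fell by 1.70 (log2) in mutant nTregs and by 1.66 in mutant iTregs. The marker list of 7 genes also held Ikzf2. The 7 summed to 3300 to 3630 CPM in WT and 2380 to 2990 CPM in mutant nTregs. In iTregs they summed to 2370 to 2570 CPM in WT and 2510 to 2720 CPM in the mutant. In mutant nTregs 2 of the 7 were lower (28.6%, against 15.6% of all genes tested) and 5 did not pass. In mutant iTregs 1 was lower and 1 higher (14.3% each, against 11.4% and 14%). In WT iTregs 5 of the 7 were lower than in WT nTregs (71.4%, against 35.7% of all genes tested) and 1 was higher (14.3%, against 33.7%). Their log2 fold changes ran from -4.98 to 0.72. The nTreg libraries also held RNA of other cells: 8 B cell markers summed to 298 to 476 CPM in WT and 198 to 430 CPM in mutant nTregs, and 6 erythroid markers to 111 to 389 CPM and 178 to 883 CPM, against at most 3.68 CPM and 0.108 CPM in iTregs. Mutant nTreg library 1 stood apart, with 10 CD8 and NK cell markers summing to 1630 CPM against 65.1 to 74.5 CPM in WT. Mutant nTreg libraries 2 and 4 summed to 197 and 176 CPM, also above every WT library. Of the 10 markers 9 were higher in mutant nTregs (90%, against 19.3% of all genes tested). The nTreg results were also computed without library 1, with the main values given below. That leaves the smaller excess of libraries 2 and 4 in place.

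Many of these genes carry an ISRE-like sequence next to their start, which is shown first because it is the element through which type I interferon acts. The letters searched were GAAA, any 2 bases and GAAA again, on both strands, with overlapping matches allowed. RefSeq promoter windows (GRCm38.p6, 250 bases before to 50 bases after the start) were found for 38 of the 48 genes, and the ISRE-like letters were in 28 of the 38 (73.7%) against 3.99% of 27025 genes. They were in 7 of 7 GTPase windows, 3 of 3 Ifi200 windows, 4 of 6 of regulators and sensors, 11 of 17 of antiviral effectors, 2 of 3 Schlafen windows and 1 of 2 chemokine windows. The GAS-like letters TTCNNNGAA, which read the same on both strands, were in 8 of 38 windows (21.1%) against 9.55% of all genes, 4 of them among the 7 GTPase windows. The windows shown lie upstream of both the RefSeq start and the gene's bounds in the files, and are written 5′ to 3′ on the gene's strand. Capitals mark the ISRE-like letters or their reverse complement. Isg15 and Gbp7 are shown as genes that passed in neither genotype comparison.
Ifi206: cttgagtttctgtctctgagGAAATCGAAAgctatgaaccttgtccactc
Ifi208: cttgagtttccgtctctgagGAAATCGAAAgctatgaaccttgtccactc
Ifi213: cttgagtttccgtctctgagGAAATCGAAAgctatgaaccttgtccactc
Slfn8: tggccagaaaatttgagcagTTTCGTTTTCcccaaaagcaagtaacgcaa
Ifit1: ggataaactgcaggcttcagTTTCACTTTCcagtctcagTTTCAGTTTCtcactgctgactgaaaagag
Oas3: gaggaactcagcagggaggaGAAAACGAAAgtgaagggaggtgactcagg
Gbp7: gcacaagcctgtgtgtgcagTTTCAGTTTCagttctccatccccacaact
Cxcl10: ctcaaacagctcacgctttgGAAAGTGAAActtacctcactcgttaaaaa
Isg15: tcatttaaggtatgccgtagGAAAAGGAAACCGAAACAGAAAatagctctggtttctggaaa

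The Ifi208 and Ifi213 windows were identical over all 50 bases, and the Ifi206 window differed from them at 1 base. They lie at chr1:173673587-173673636 (plus strand), chr1:173599316-173599365 (minus strand) and chr1:173491329-173491378 (minus strand), and the match begins 58, 73 and 40 bases before the RefSeq start. The other windows lie at chr11:83020829-83020878 (Slfn8, minus), chr19:34640765-34640833 (Ifit1, plus), chr5:120777705-120777754 (Oas3, minus), chr3:142530263-142530312 (Gbp7, plus), chr5:92349073-92349122 (Cxcl10, minus) and chr4:156200855-156200916 (Isg15, minus). For Slfn5, Gbp2 and Gbp3 the matching stretch before the RefSeq start falls within or across the gene's bounds in the files, and it is not shown. A match of letters is a description of the sequence and not a measured binding site.

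Near-identical paralogs matter for this family, because the authors counted a read that aligned to several places at each of them. Of the distinct 50-base stretches in each gene's annotated transcripts, a median of 1.65% were also found in another gene, and 31 of the 48 genes shared under 5%. The 7 genes that shared over 20% were Oas1a (57.6%, all of it with Oas1g), Ifit3 (51.2%, with Ifit3b), Phf11b (47.0%), Oas1g (45.7%), Ifit3b (45.0%), Ifi206 (25.6%) and Ifi208 (20.8%, most of it with Ifi213). For these genes part of the counts cannot be assigned to a single copy. Ifi213 shared 15.6%, Slfn8 14.6%, Gbp7 12.7%, Igtp 11.8% and Rtp4 11.6%, whereas Slfn5 (3.4%), Gbp2 (2.0%), Gbp3 (3.8%), Iigp1 (1.7%), Mx1 (3.9%), Ifih1 (0.0%), Cxcl10 (0.0%), Oas2 (0.0%) and Oasl1 (0.0%) shared little.

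**Figure D1:**
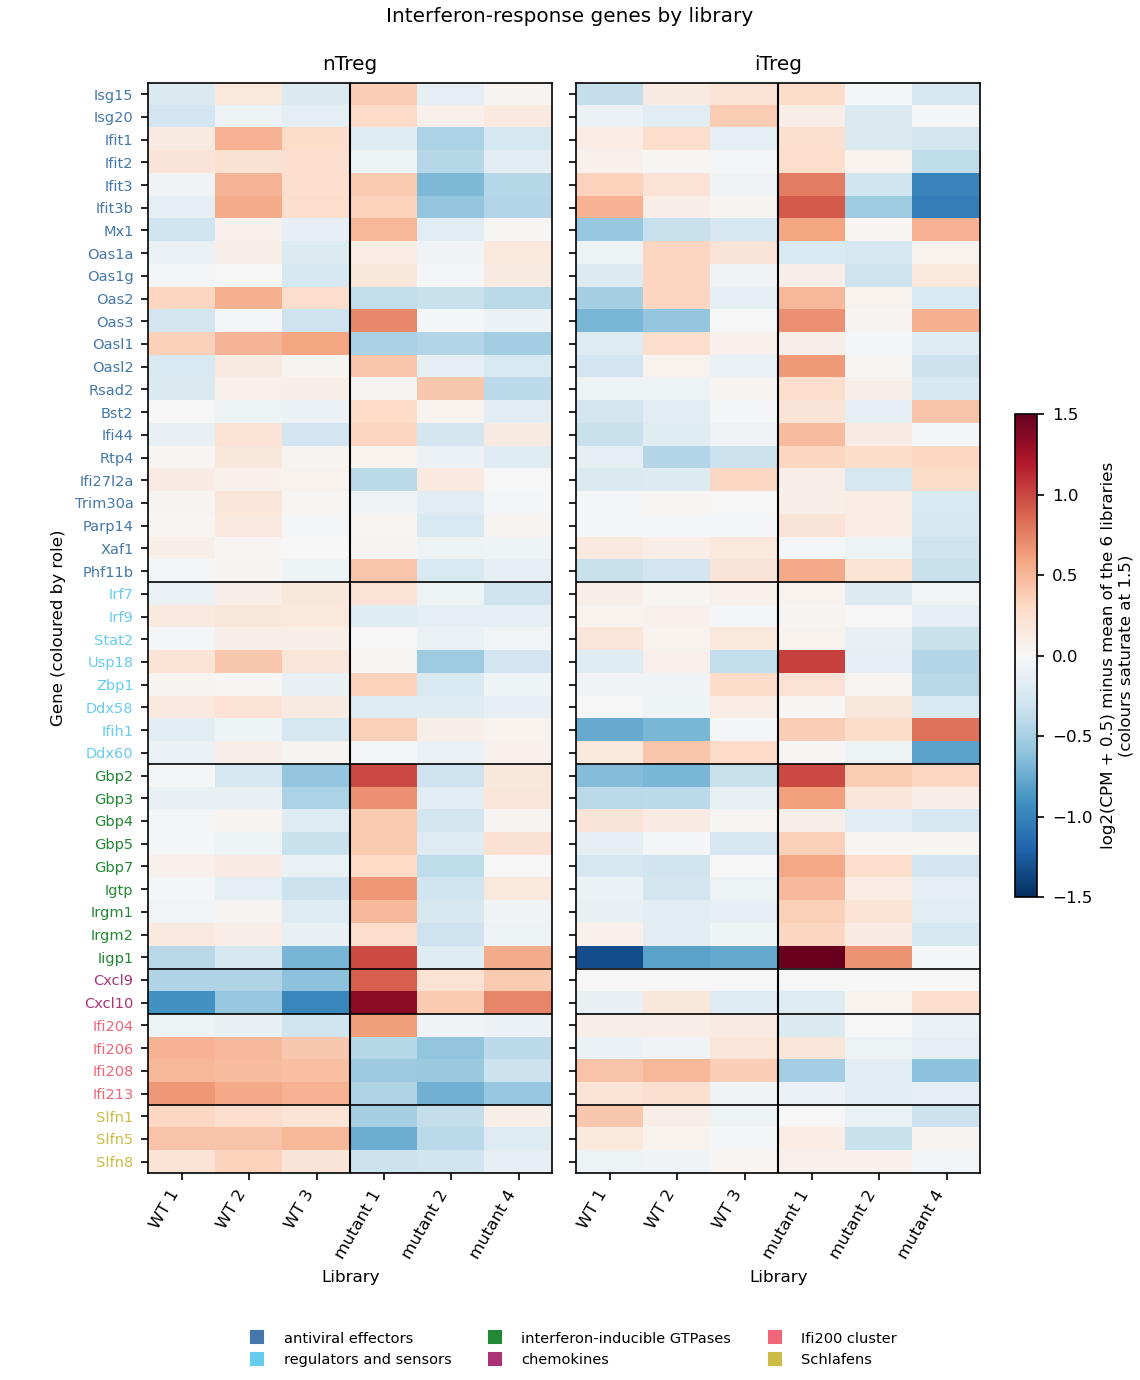
Level of each of the 48 genes (rows, coloured by role) in each library (columns), as log2(CPM + 0.5) minus the mean of the 6 libraries of the same cell type, with colours saturating at 1.5. In nTregs the Ifi206, Ifi208, Ifi213 and Slfn5 rows are high in the 3 WT and low in the 3 mutant libraries, and in both cell types all 9 GTPases are highest, among mutant libraries, in mutant library 1. So are 33 of all 48 genes in nTregs and 37 of the 47 with counts in iTregs.

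In nTregs the genotypes differed in both directions and by role. The Ifi200 genes Ifi206, Ifi208 and Ifi213, all 3 Schlafens, 4 antiviral effectors and the regulators Irf9 and Ddx58 fell in the mutant, while the chemokines Cxcl9 and Cxcl10 rose. That is 12 of 48 genes lower (25% of them, against 15.6% of the 17977 genes tested) and 2 of 48 higher (4.17%, against 19.3% of all genes tested), where 34.9% of all genes passed in either direction. The median log2 fold change of the 48 genes was -0.04, against 0.04 over all genes tested. Mutant libraries lay all below WT for 14 of the 48 genes (22.6% of all genes did so) and all above WT for 5 (25.7% of all genes). Without mutant library 1 the counts were 11 lower and 2 higher.

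The Ifi200 cluster encodes HIN-200 proteins, DNA-binding proteins of the nucleus and cytosol, and its 4 genes studied here lie together on chromosome 1 (GRCm38), from the start of Ifi206 at 173468485 to the end of Ifi204 at 173766943. Ifi213 stood at 206, 195 and 189 CPM in WT nTregs and at 95.8, 79.3 and 88.6 CPM in mutant nTregs, a fall of 1.16 on the log2 scale (SE 0.08, adjusted p = 2.53e-05). All 3 mutant libraries were below all 3 WT libraries. Ifi206 read 196, 191 and 180 CPM in WT and 101, 89.7 and 103 CPM in the mutant (log2 fold change -0.95, SE 0.09, adjusted p = 8.32e-05). Ifi208 read 143, 141 and 138 CPM against 69.1, 68.8 and 80.5 CPM (log2 fold change -0.95, SE 0.10, adjusted p = 0.000109). For both genes the groups were again apart, and without mutant library 1 the changes were -1.20 for Ifi213, -0.95 for Ifi206 and -0.89 for Ifi208. Ifi204, a member of the cluster that did not pass, read 16.9, 16.5 and 14.4 CPM in WT and 27.9, 17.2 and 16.8 CPM in the mutant, with its high value in mutant library 1 (log2 fold change 0.37, adjusted p = 0.0973, and 0.12 without that library).

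Schlafens are a family of interferon-induced proteins, some of which are known for a part in T cell quiescence. Slfn5, at chr11:82951349-82964840, read 211, 211 and 222 CPM in WT nTregs and 93.8, 119 and 137 CPM in mutant nTregs, a fall of 0.88 (log2, SE 0.13, adjusted p = 0.000474). Slfn8 read 184, 202 and 183 CPM against 127, 130 and 146 CPM (log2 fold change -0.50, SE 0.07, adjusted p = 0.000443). Without mutant library 1 the changes were -0.72 for Slfn5 and -0.44 for Slfn8. The groups did not overlap for either gene, and mutant library 4 was the highest mutant library for all 3 Schlafens. The 2 genes of the 14 that passed with the largest adjusted p were Slfn1 and Ifit2. Slfn1 changed by -0.50 (adjusted p = 0.0195), and its call was lost without mutant library 1 (log2 fold change -0.36, adjusted p = 0.0723) and without WT library 1 or 2 (adjusted p = 0.0626 and 0.0505). Ifit2 changed by -0.44 (adjusted p = 0.0226), and its call was lost without mutant library 2 (adjusted p = 0.0593) and without WT library 1 or 2 (adjusted p = 0.0507 and 0.0590).

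Among the antiviral effectors, 4 of 22 fell in mutant nTregs (18.2%, against 15.6% of all genes tested) and the median of the 22 was -0.01. By edgeR none rose, with 1 higher at an unadjusted p below 0.05 and 1 called higher by DESeq2. Oasl1, an oligoadenylate synthetase-like protein that holds back Irf7 translation, read 5.97, 6.70 and 7.13 CPM in WT and 3.10, 3.22 and 3.04 CPM in the mutant (log2 fold change -1.08, SE 0.23, adjusted p = 0.00436). Every mutant library was at about the same level, below every WT library. Ifit1, which binds viral RNA that lacks the host cap, read 28.1, 37.0 and 31.1 CPM against 22.2, 18.2 and 21.2 CPM (log2 fold change -0.64, SE 0.15, adjusted p = 0.00577). Oas2, which makes the oligoadenylate that activates RNase L, read 13.5, 15.7 and 13 CPM against 8.15, 8.37 and 7.94 CPM (log2 fold change -0.79, SE 0.23, adjusted p = 0.0186). Without mutant library 1 the changes were -1.05 for Oasl1, -0.68 for Ifit1 and -0.76 for Oas2. Groups were apart for these genes, but the Oas2 call was lost without WT library 2 (log2 fold change -0.70, adjusted p = 0.0777). The 18 effectors that did not pass had log2 fold changes from -0.43 (Ifit3) to 0.46 (Oas3). Among them are 2 classical indicators of the response, Isg15, a ubiquitin-like modifier, and Mx1, a GTPase that blocks influenza virus. Isg15 read 8.62, 11.3 and 8.62 CPM in WT and 13.2, 9.17 and 10.4 CPM in the mutant (log2 fold change 0.20, 95% interval -0.27 to 0.66). Mx1 read 15.8, 20.4 and 17.9 CPM against 27.7, 17.4 and 19.8 CPM (log2 fold change 0.26, 95% interval -0.15 to 0.67). For both genes WT and mutant libraries overlapped, and mutant library 1 was the highest.

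Of the 8 regulators and sensors, 2 fell in mutant nTregs (25%, against 15.6% of all genes tested). None rose (edgeR, with 0 higher at an unadjusted p below 0.05 and 0 by DESeq2), where 19.3% of all genes did. Irf9, the DNA-binding subunit of the type I interferon complex, read 135, 137 and 136 CPM in WT and 108, 110 and 111 CPM in the mutant (log2 fold change -0.31, SE 0.06, adjusted p = 0.00196). Ddx58, which encodes the RNA sensor RIG-I, read 110, 115 and 109 CPM against 86.5, 87 and 91.1 CPM (log2 fold change -0.33, SE 0.09, adjusted p = 0.0119). These changes were small but every mutant library was below every WT library for both genes, and without mutant library 1 they were -0.27 for Irf9 and -0.29 for Ddx58. Stat2, the partner of Irf9, did not pass (log2 fold change -0.10, 95% interval -0.29 to 0.09), nor did Irf7, the amplifying transcription factor (-0.11, -0.38 to 0.16). The 6 that did not pass ran from -0.53 for Usp18, which removes Isg15 from proteins and restrains the receptor, to 0.34 for Ifih1.

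The chemokines Cxcl9 and Cxcl10, which attract T cells through the receptor CXCR3 and are classical targets of interferon-γ, were near the bottom of the range of levels in nTregs. Cxcl10 read 2.88, 3.77 and 2.70 CPM in WT and 15.5, 7.78 and 10 CPM in the mutant, a rise of 1.83 on the log2 scale (SE 0.34, adjusted p = 0.00195). Cxcl9 read 0.441, 0.438 and 0.341 CPM against 1.90, 1.0 and 1.19 CPM (log2 fold change 1.73, SE 0.34, adjusted p = 0.00572), on 11 to 13 counts in each WT and 39 to 60 in each mutant library. The groups were apart for both genes and mutant library 1 was the highest for both. Without that library the changes were 1.54 for Cxcl10 (adjusted p = 0.00324) and 1.45 for Cxcl9 (adjusted p = 0.00995). Both genes are also made by myeloid and dendritic cells. The 7 conventional dendritic cell markers summed to 12.7 to 18.0 CPM in WT and 31.0 to 84.0 CPM in mutant nTregs. Of the 6 that could be tested 5 rose (83.3%, against 19.3% of all genes). The 9 myeloid markers summed to 35.2 to 36.4 CPM in WT and 22.9 to 46.8 CPM in the mutant, and none of the 6 that could be tested passed (1 had an unadjusted p below 0.05). The part of these cells in the chemokine result was not tested. In bulk libraries, more cells of a type and more RNA per cell cannot be told apart.

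The 9 GTPases, the guanylate-binding proteins (Gbp) and immunity-related GTPases (Igtp, Irgm1, Irgm2 and Iigp1) that act at pathogen-holding vacuoles, showed no call in nTregs: 0 passed by edgeR's quasi-likelihood test, 3 had an unadjusted p below 0.05 (all higher), and DESeq2 called 1 higher. Over all genes tested 19.3% rose and 15.6% fell. The log2 fold changes of the 9 GTPases ran from -0.07 to 0.97 with a median of 0.30. Iigp1 read 104, 117 and 85.6 CPM in WT and 273, 122 and 205 CPM in the mutant (log2 fold change 0.97, 95% interval 0.02 to 1.91, adjusted p = 0.101). Gbp2 read 134, 115 and 91.9 CPM against 274, 111 and 155 CPM (log2 fold change 0.67, 95% interval 0.06 to 1.27, adjusted p = 0.0809). Mutant library 1, the library with the highest sum of CD8 and NK cell markers, was the highest mutant library for 9 of 9 GTPases. Mutant library 2 was the lowest for the same 9. Library 1 was also the highest for 33 of all 48 genes (68.8%, against 42.3% of all genes tested). The summed level of the 9 GTPases was 2370 CPM in mutant library 1 against 1330 CPM in mutant library 2, with WT libraries from 1320 to 1580 CPM. Without library 1 the change of Iigp1 was 0.70 and that of Gbp2 0.26. Whether cells other than Tregs account for the high GTPase values of that library was not tested.

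**Figure D2:**
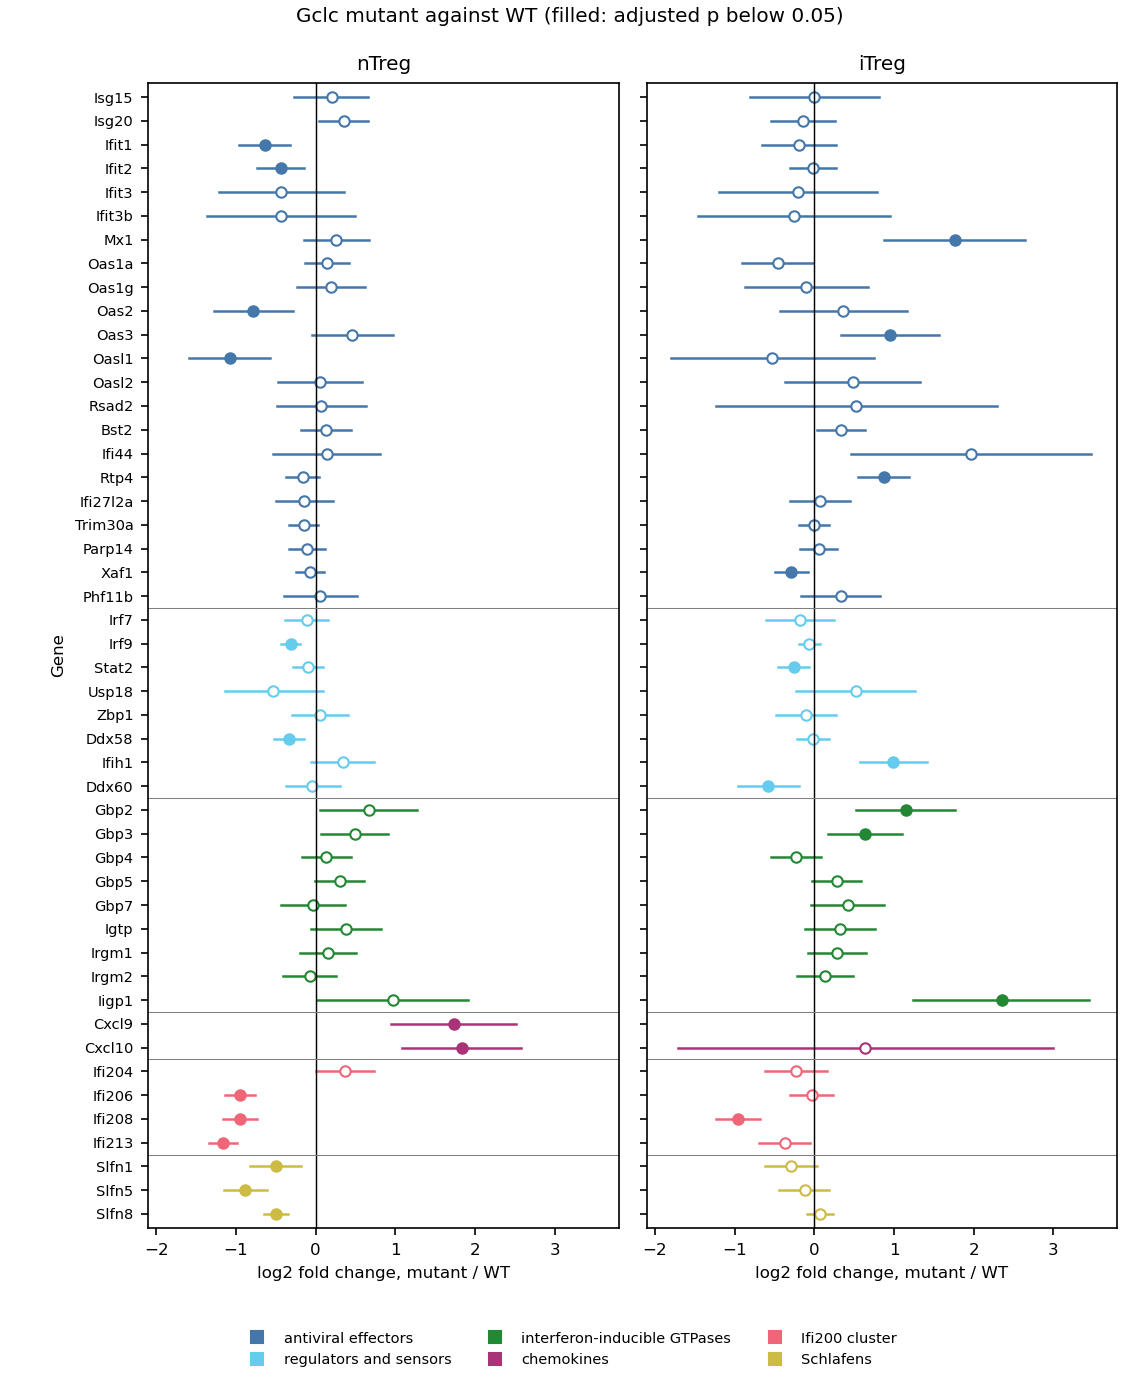
Log2 fold change of the Gclc mutant over WT for each of the 48 genes in nTregs (left) and iTregs (right), with 95% intervals as lines, coloured by role, and points filled where the adjusted p is below 0.05. In nTregs 12 points are filled below 0 and 2 above, and in iTregs 4 below and 7 above; Cxcl9 had no count in iTregs and is not drawn there.

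In iTregs the GTPases Gbp2, Gbp3 and Iigp1, effectors Mx1, Oas3 and Rtp4 and the RNA sensor Ifih1 rose in the mutant, while Xaf1, Stat2, Ddx60 and Ifi208 fell. That is 7 of 48 higher (14.6%, against 14% of all genes tested) and 4 of 48 lower (8.33%, against 11.4% of all genes), with 25.4% of all genes passing in either direction. Both shares were near those over all genes, and the median of the 48 was 0 against 0.04. Mutant libraries lay all above WT for 9 genes (26.8% of all genes did so) and all below for 6 (19.7% of all genes). Of the 14 genes called in nTregs and the 11 called in iTregs, 1 was called in both, Ifi208 (2.08% of the 48, against 11.4% of all genes tested), and 24 were called in neither (50%, against 51.1%). Different calls do not show different changes, which the test of the difference addresses. Counts moved with single libraries: 4 were higher without mutant library 1, 3 without WT library 1 and 4 without WT library 2.

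Iigp1, which loads onto parasite vacuoles, had the largest change, from 3.41, 5.12 and 5.27 CPM in WT iTregs to 46.0, 15.1 and 9.23 CPM in mutant iTregs (log2 fold change 2.35, SE 0.51, adjusted p = 0.0073). All mutant libraries were above all WT libraries, but the mutant values differed among themselves by more than the WT values, and without mutant library 1 the change was 1.40 (adjusted p = 0.0222). Gbp2 read 37.6, 36.6 and 47.0 CPM in WT and 118, 77.1 and 73.4 CPM in the mutant (log2 fold change 1.15, SE 0.28, adjusted p = 0.0134). Gbp3 read 8.32, 8.33 and 10.3 CPM against 17.3, 12.7 and 12 CPM (log2 fold change 0.64, SE 0.21, adjusted p = 0.0457). The groups were apart for both, and mutant library 1 was again the highest mutant library for 9 of 9 GTPases, whereas it was the highest for 34.7% of all genes tested. It was also the highest for 37 of the 47 genes of the set with counts there (78.7%), so this was not particular to the GTPases. The 10 CD8 and NK cell markers summed to 37.9 to 56.9 CPM in WT and 59.0 to 89.3 CPM in mutant iTregs, and none of the 10 passed in iTregs (1 had an unadjusted p below 0.05). The Gbp2 call was lost without mutant library 1 (log2 fold change 0.90, adjusted p = 0.0626) and without WT library 1 or 2 (adjusted p = 0.0631 and 0.0598). The Gbp3 call was lost in 8 of the 12 fits that each left out a library (mutant iTreg library 1 or 2, WT iTreg library 1 or 2, mutant nTreg library 4, and each WT nTreg library), with log2 fold changes of 0.46 to 0.70. The 6 GTPases that did not pass ran from -0.23 (Gbp4) to 0.42 (Gbp7).

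Mx1 had few counts in iTregs, with 4, 8 and 10 counts in the WT libraries and 30, 14 and 27 counts in the mutant ones, or 0.12, 0.229 and 0.270 CPM against 0.882, 0.439 and 0.820 CPM (log2 fold change 1.76, SE 0.41, adjusted p = 0.0095). The call was lost without WT library 1 (log2 fold change 1.5, adjusted p = 0.0506). Rtp4, a chaperone of membrane receptors that binds flaviviral RNA, had the smallest adjusted p of the genes that rose, at 0.958, 0.687 and 0.784 CPM in WT and 1.5, 1.44 and 1.49 CPM in the mutant (log2 fold change 0.87, SE 0.15, adjusted p = 0.00242). Its mutant libraries were nearly equal and all above WT. Oas3, the long oligoadenylate synthetase, read 1.92, 2.12 and 3.40 CPM against 5.79, 3.52 and 5.16 CPM (log2 fold change 0.95, SE 0.28, adjusted p = 0.0287), with groups apart by a narrow margin. The call was lost without mutant library 1 or 4 or WT library 1 or 2 (adjusted p = 0.0688 to 0.122). Xaf1, a proapoptotic protein, read 5.45, 5.24 and 5.51 CPM in WT and 4.82, 4.61 and 3.82 CPM in the mutant (log2 fold change -0.29, SE 0.09, adjusted p = 0.0419, and -0.19 without mutant library 4). The call was lost in 7 of the 12 fits that left out a library (mutant iTreg library 2 or 4, each WT iTreg library, and WT nTreg library 1 or 2). The 18 effectors that did not pass ran from -0.53 (Oasl1) to 1.96 (Ifi44). Ifi44, a cytosolic antiviral protein, read 0, 0.0573 and 0.108 CPM in WT and 0.382, 0.188 and 0.121 CPM in the mutant (SE 0.70, adjusted p = 0.0554), all mutant libraries above all WT libraries but each on few counts.

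Ifih1 encodes MDA5, the sensor of long double-stranded RNA, and was the clearest of the sensors in iTregs. It read 7.87, 8.30 and 13.5 CPM in WT and 17.8, 16.6 and 24.4 CPM in the mutant (log2 fold change 0.99, SE 0.19, adjusted p = 0.00458), with all mutant libraries above all WT libraries. In nTregs its mutant libraries were also all above WT, at 65.7, 54.3 and 53.3 CPM against 45.7, 48.8 and 42.7 CPM, without passing (log2 fold change 0.34, adjusted p = 0.166). Ddx60, a helicase reported to aid RIG-I-type sensing, read 7.21, 8.76 and 7.94 CPM in WT iTregs and 6.53, 6.06 and 3.46 CPM in mutant iTregs (log2 fold change -0.58, SE 0.18, adjusted p = 0.0322), with mutant library 4 the lowest (-0.34 without it). The call was lost without any of the 3 WT iTreg libraries (adjusted p = 0.0591 to 0.117). Stat2 read 52.7, 48.2 and 51.9 CPM against 48.2, 42.8 and 36.7 CPM (log2 fold change -0.26, SE 0.09, adjusted p = 0.0496), in groups that nearly touched, and changed by -0.16 without mutant library 4. The call was lost in 9 of the 12 fits that left out a library (all but those without mutant iTreg library 1 or mutant nTreg library 1 or 2).

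Ifi208 was the single gene called in both cell types, with the same size of change in each. In iTregs it read 5.60, 5.93 and 5.35 CPM in WT and 2.68, 3.58 and 2.46 CPM in the mutant (log2 fold change -0.95, SE 0.13, adjusted p = 0.000765), all mutant libraries below all WT libraries. The difference between its changes in the 2 cell types was 0.00 (95% interval -0.27 to 0.26). Ifi213 read 1.53, 1.57 and 1.19 CPM against 1.15, 1.07 and 1.09 CPM, a value that did not pass (log2 fold change -0.37, adjusted p = 0.114). Ifi206 read 2.75, 2.83 and 3.40 CPM against 3.41, 2.76 and 2.61 CPM (log2 fold change -0.03, 95% interval -0.30 to 0.24). No Schlafen passed in iTregs, with log2 fold changes from -0.29 to 0.07 and unadjusted p below 0.05 in 0 of 3, and DESeq2 called 0. The chemokines were almost absent: Cxcl9 had 0 counts in all 6 iTreg libraries and Cxcl10 had 0 to 6.

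**Figure D3:**
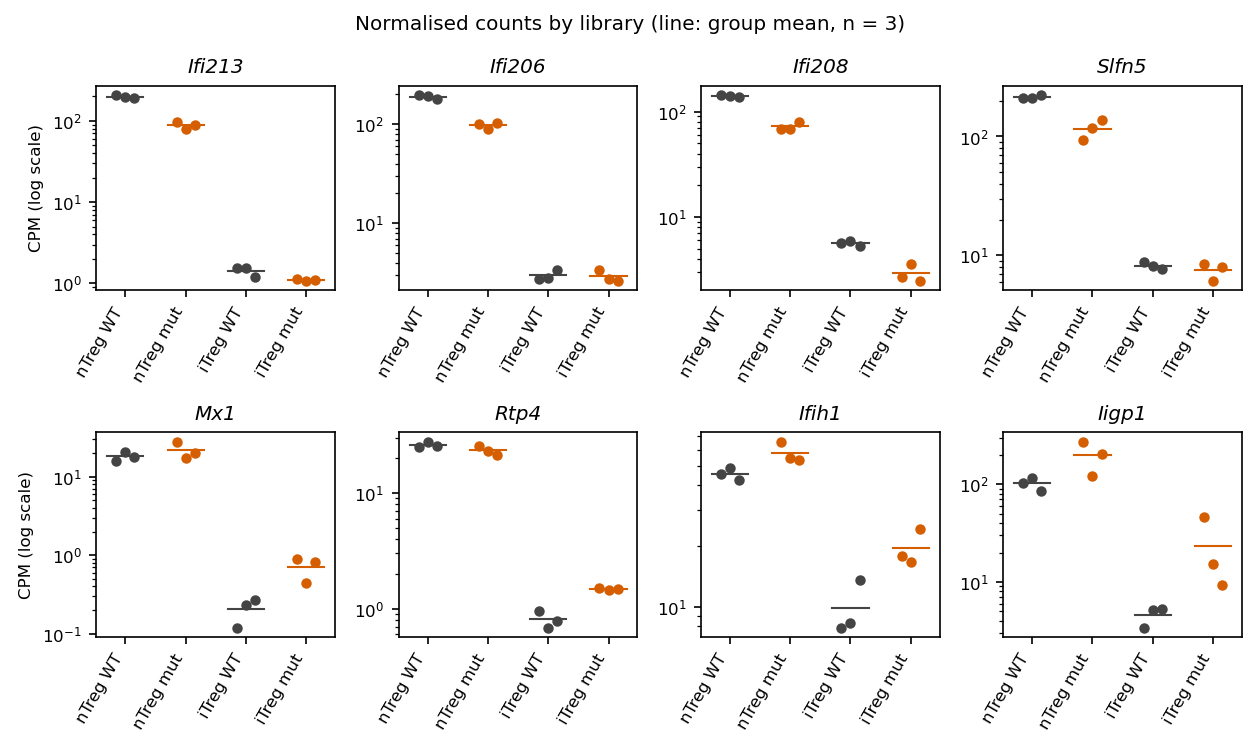
CPM on a log axis of 8 genes in each library, with WT in grey, Gclc mutant in orange and a line at the mean of 3 libraries. Upper panels are genes lower in mutant nTregs and lower panels genes higher in mutant iTregs; Ifi208 is the one gene of the 8 whose mutant values passed below WT in both cell types.

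The difference between the genotype effects, iTreg minus nTreg, was tested as an interaction over all 12 libraries. It passed for 6 of the 48 genes, all with a higher mutant-to-WT ratio in iTregs than in nTregs (12.5%, against 6.12% of all genes tested), and for 0 in the other direction (against 7.18% of all genes, with 13.3% in either direction). In that other direction 3 had an unadjusted p below 0.05 and DESeq2 called 0. The median difference was 0.21, against 0 over all genes. The 6 genes were of 2 kinds. Ifi206 (difference 0.91, SE 0.15, adjusted p = 0.00485), Ifi213 (0.79, SE 0.17, adjusted p = 0.0128), Slfn8 (0.57, SE 0.10, adjusted p = 0.00598) and Slfn5 (0.76, SE 0.19, adjusted p = 0.0254) fell in mutant nTregs and did not pass in iTregs. Rtp4 (1.03, SE 0.18, adjusted p = 0.00517) and Mx1 (1.51, SE 0.45, adjusted p = 0.0454) rose in mutant iTregs and did not pass in nTregs. The Mx1 difference was lost in 10 of the 12 fits that left out a library (all but those without mutant library 2 of iTregs or mutant library 1 of nTregs), with values of 1.27 to 1.75. The Slfn5 difference was lost in 5 (mutant iTreg library 1, WT iTreg library 2 or 3, and WT nTreg library 1 or 2), with values of 0.66 to 0.77. For the 9 GTPases the difference did not pass for any gene (edgeR; 0 with an unadjusted p below 0.05, 0 by DESeq2), so the calls of Gbp2, Gbp3 and Iigp1 in iTregs alone do not show a difference from nTregs. The differences were 1.38 for Iigp1 (95% interval -0.06 to 2.82), 0.48 for Gbp2 (-0.37 to 1.34) and 0.14 for Gbp3 (-0.48 to 0.77). Scaling by library size alone moved the median difference over all genes to -0.14, and the share of all calls that were higher from 46% to 17.8%.

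**Figure D4:**
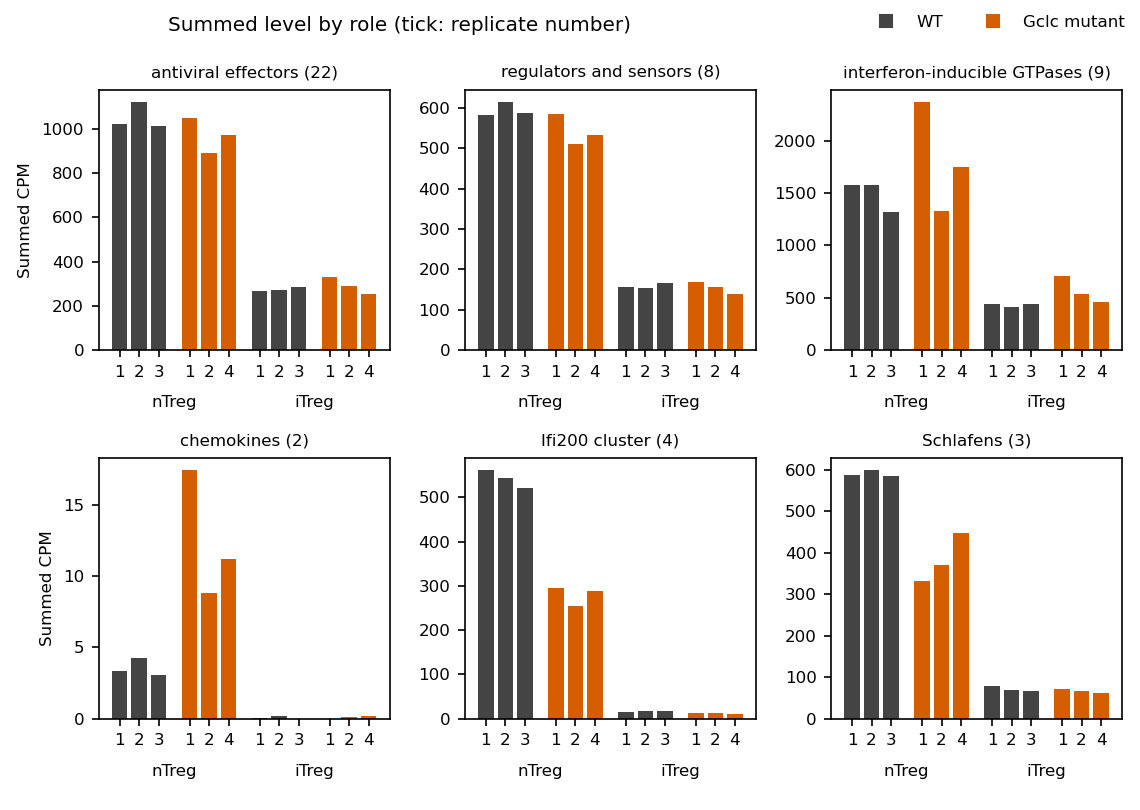
Summed CPM of the genes of each role in each library (bars, axes from 0), WT in grey and Gclc mutant in orange, with replicate numbers below and the number of genes in brackets. The Ifi200 cluster sums to 521 to 561 CPM in WT and 255 to 294 CPM in mutant nTregs, and the Schlafens to 585 to 599 CPM and 331 to 447 CPM, while the GTPases, the effectors and the regulators overlap between genotypes in nTregs.

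In WT iTregs 46 of the 48 genes were lower than in WT nTregs (95.8%, against 35.7% of all genes tested) and 0 were higher (against 33.7%, with 69.5% of all genes in either direction). None was higher with an unadjusted p below 0.05, and DESeq2 called 0 higher. The median log2 fold change was -3.19, against -0.02 over all genes. The 48 genes together summed to 4340, 4460 and 4030 CPM in WT nTregs and to 960, 925 and 976 CPM in WT iTregs. The 2 that did not pass were Bst2, the membrane tether tetherin that holds budding virions (log2 fold change 0.09, 95% interval -0.22 to 0.40), and Igtp (-0.43, -0.87 to 0.01). Cell source and culture differ together between these groups and cannot be told apart. B cell and erythroid RNA of the nTreg libraries was nearly absent from iTregs. Myeloid markers summed to 9.27 to 10.7 CPM in WT iTregs against 35.2 to 36.4 CPM in WT nTregs, and plasmacytoid dendritic cell markers to 11.7 to 14.8 CPM against 72.1 to 75.4 CPM. The part of these cells in the differences was not tested.

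The largest difference was that of Ifi213, from 206, 195 and 189 CPM in WT nTregs to 1.53, 1.57 and 1.19 CPM in WT iTregs (log2 fold change -7.10, SE 0.12, adjusted p = 1.01e-12). Cxcl9 had 37 counts over the WT nTreg libraries and 0 over the WT iTreg libraries, so that it was at least 14.2-fold lower in iTregs. That bound takes 3 counts over the 3 iTreg libraries as its floor and holds for counting error alone. Rsad2, the antiviral enzyme viperin, went from 7.30, 9.06 and 9.15 CPM to 0.0599, 0.0573 and 0.108 CPM (log2 fold change -6.74, SE 0.44, adjusted p = 5.92e-08). In each of these genes every iTreg library was far below every nTreg library, on 2 to 4 counts for Rsad2. Mx1 followed (log2 fold change -6.41, SE 0.30), with the library values given above, then Ifi206 (-5.97, SE 0.12) and Cxcl10 (-5.68, SE 0.61, on 0 to 5 counts in WT iTregs), each with an adjusted p of at most 3.59e-06. With Cxcl9 at its bound the median of the 48 genes was also -3.19. By role the median was -1.79 for the GTPases, -2.31 for regulators and sensors, -2.85 for Schlafens, -3.82 for antiviral effectors and -5.31 for the Ifi200 cluster.

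Per length of transcript the order of levels also differed between the cell types. In WT nTregs the highest mean RPKM (CPM per kilobase of the exon length given in the files) was that of Ifi27l2a, a mitochondrial membrane protein (209 ± 5.26, SD, n = 3), then Igtp (115 ± 11.5), Slfn1 (100 ± 3.81), Ifi206 (61.9 ± 2.57) and Phf11b (61.5 ± 2.16), the last pair not differing beyond their spread. In WT iTregs Igtp led (85.0 ± 6.43 RPKM), then Ifi27l2a (42.5 ± 9.66), Bst2 (24.2 ± 2.06), Slfn1 (20 ± 3.42) and Trim30a (17.0 ± 0.23), of which Bst2, Slfn1 and Trim30a are neighbours within or near their spread. The median over the 48 genes was 15.1 RPKM in WT nTregs and 1.26 RPKM in WT iTregs. Of the 48 genes, 1 had a mean below 1 CPM in WT nTregs and 11 in WT iTregs. Low counts limit what can be seen for those 11, although no detection limit was computed. Rtp4, with a mean of 0.81 CPM in WT iTregs, is among them and passed in the iTreg genotype comparison.

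**Figure D5:**
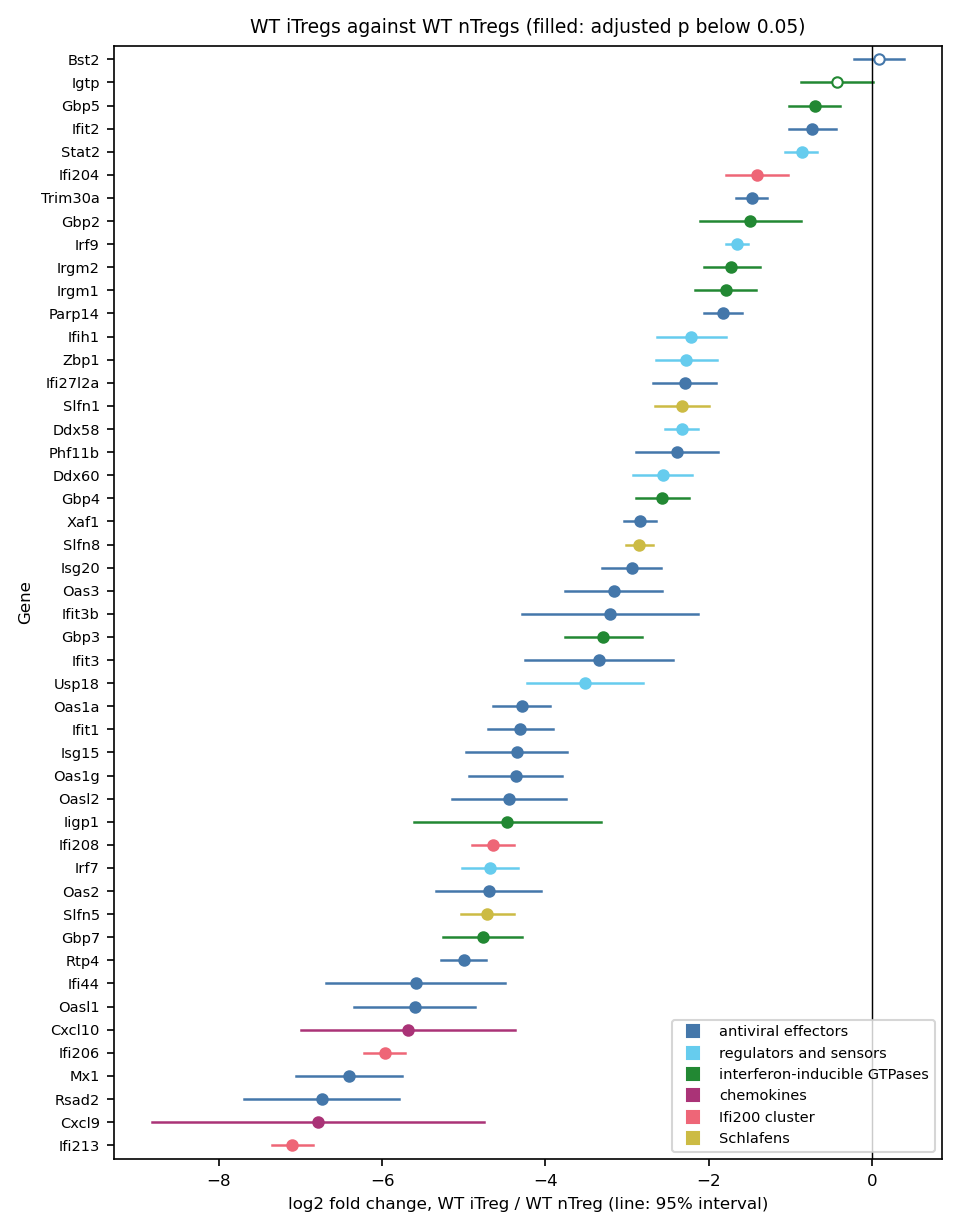
Log2 fold change of WT iTregs over WT nTregs for each of the 48 genes, sorted, with 95% intervals as lines, coloured by role, and points filled where the adjusted p is below 0.05. Of the 48 points 46 are filled and below 0, and Bst2 and Igtp are open; the Cxcl9 point is a fitted value for a group with no count and not a bound.

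The pathway upstream of these genes was examined with lists of ligands, receptors, signalling factors, restraints and sensors. Of 21 interferon ligands 20 were too low to test, and Ifnb1 and the Ifna genes listed had 0 counts in all 12 libraries. Ifng, the ligand of the type II pathway, read 3.56, 2.73 and 2.11 CPM in WT nTregs and 72.8, 5.61 and 4.35 CPM in mutant nTregs (log2 fold change 3.30, SE 0.90, adjusted p = 0.0137). Its high value was in mutant library 1, and without that library the change was 0.87 (adjusted p = 0.110). DESeq2 returned no adjusted p for it, which is a missing test and not a negative one. The call was also lost without WT nTreg library 3 (3.10, adjusted p = 0.0549). In iTregs it read 0.0898, 0 and 0.162 CPM in WT and 1.32, 0.345 and 0.516 CPM in the mutant, all mutant libraries above all WT libraries (log2 fold change 3.05, SE 1.92, adjusted p = 0.264). It passed there in 2 alternatives, with only the iTreg libraries fitted and without mutant nTreg library 1. Of 6 receptor chains 4 fell in mutant nTregs (66.7%, against 15.6% of all genes). In iTregs edgeR called none, 1 was lower at an unadjusted p below 0.05, and DESeq2 called 1 lower. Ifnar1 read 190, 197 and 204 CPM in WT and 125, 126 and 127 CPM in mutant nTregs (log2 fold change -0.65, SE 0.05, adjusted p = 5.46e-05), every mutant library below every WT library. Ifngr2 changed by -0.66 (-0.40 without mutant nTreg library 1), Il10rb by -0.36 and Ifnar2 by -0.23, the last lost without mutant nTreg library 1 (-0.12, adjusted p = 0.185) and without each of 5 others, while Ifngr1 did not pass (-0.03, SE 0.24).

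Of 11 signalling factors 2 rose and 2 fell in mutant nTregs (18.2% each, against 19.3% and 15.6% of all genes). In mutant iTregs 3 rose and 3 fell (27.3% each, against 14% and 11.4%). Jak1 fell by 0.55 in nTregs and by 0.22 in iTregs, and Irf3 fell by 0.34 and by 0.37. The Jak1 call in iTregs was lost in 6 of the 12 fits that left out a library (mutant iTreg library 1 or 4, WT iTreg library 1 or 2, and WT nTreg library 1 or 2), with values of -0.22 to -0.17. Irf1, a direct interferon-γ target, did not pass in nTregs (0.19, adjusted p = 0.350) and fell by 0.46 in iTregs (adjusted p = 0.0469), a call that 9 of the 12 fits leaving out a library did not keep (all but those without a mutant nTreg library). Among 10 restraining factors 3 rose (30%, against 19.3% of all genes) and 2 fell (20%, against 15.6%) in mutant nTregs. In iTregs 3 fell (30%, against 11.4%). Socs1, the inhibitor of the JAK kinases, was up by 0.64 in nTregs (adjusted p = 0.00363) and at -0.19 in iTregs (adjusted p = 0.325). Ptpn11 rose by 0.33 in nTregs, and Adar, which edits double-stranded RNA, changed by -0.26 in nTregs and -0.23 in iTregs (the latter lost without WT iTreg library 1, adjusted p = 0.0550). Among 13 sensing genes 1 rose (7.69%, against 19.3% of all genes) and 2 fell (15.4%, against 15.6%) in mutant nTregs. In iTregs 2 rose and 2 fell (15.4% each, against 14% and 11.4%). Tlr7, a sensor of single-stranded RNA, changed by -1.12 in nTregs, Cgas, a sensor of DNA, by 0.83, and Ikbke, a kinase that activates Irf3, by -0.48.

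Of 41 further interferon-stimulated genes outside the 48, 5 rose (12.2%, against 19.3% of all genes) and 11 fell (26.8%, against 15.6%) in mutant nTregs. Without mutant nTreg library 1, 4 rose and 10 fell. In mutant iTregs 8 rose (19.5%, against 14%) and 6 fell (14.6%, against 11.4%). Ifitm1 and Ifitm2, which block virus entry, rose by 3.66 and by 2.23 in nTregs, with Ifitm1 at 0.441 to 0.640 CPM in WT and 13, 4.22 and 3.29 CPM in the mutant, highest in mutant library 1. Trim25, the ubiquitin ligase that activates RIG-I, changed by -0.43 in nTregs and by 0.26 in iTregs, the latter lost without mutant iTreg library 1 (0.21, adjusted p = 0.0574) and without WT iTreg library 1 or 2 (0.22 and 0.25). Of 15 genes listed for MHC class I presentation, Ciita, a regulator of class II, among them, 7 rose in mutant nTregs (46.7%, against 19.3% of all genes). None fell (unadjusted p below 0.05 for 0 lower, and 0 lower by DESeq2). Without mutant nTreg library 1, 5 of these genes rose and 0 fell. In mutant iTregs 4 fell (26.7%, against 11.4%) and none rose (1 higher at an unadjusted p below 0.05, 0 by DESeq2). There the class I heavy chains H2-K1 and H2-D1 fell by 0.44 and by 0.42. Psmb9, an immunoproteasome subunit, rose by 0.66 in mutant nTregs (adjusted p = 0.00538), with mutant library 1 the highest (0.53 without it), and read 0.00 in iTregs (SE 0.15).

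Close paralogs of the set were counted in the same way. Of 8 tested Ifi200 paralogs outside the 48, 4 fell in mutant nTregs (50%, against 15.6% of all genes tested) and 0 rose (1 had an unadjusted p below 0.05 and DESeq2 called 0 higher). In iTregs 3 fell (37.5%, against 11.4% of all genes) and 1 rose (12.5%, against 14%). Ifi214 read 121, 131 and 125 CPM in WT and 62.3, 70.1 and 72.0 CPM in mutant nTregs (log2 fold change -0.89, SE 0.10, adjusted p = 0.000144), and changed by -0.79 in iTregs (adjusted p = 0.00147). Ifi209 changed by -0.84 and -0.70, and Ifi203 by -0.55 in nTregs. In each of these 3 nTreg comparisons the mutant libraries were below the WT libraries. Ifi209 and Ifi214 share sequence with each other (33.4% of the 50-base stretches of Ifi209), so their values are not independent. Of 10 tested GTPase paralogs none passed in nTregs (edgeR, with 1 unadjusted p below 0.05 and 0 by DESeq2). In iTregs Gbp2b (0.99) and Gvin1 (0.68) rose, which is 20% of them against 14% of all genes. Both calls were lost without some single libraries (Gbp2b without WT iTreg library 1 or 2, Gvin1 without mutant iTreg library 1 or 2 or WT iTreg library 2 or 3, with values of 0.53 to 0.91). Gvin1 shared 99.2% of its 50-base stretches with other genes (98.3% with Gm4070), so its value cannot be assigned to that gene alone. Tgtp1 (81.2%), Tgtp2 (86.6%), Gbp6 (70.7%) and Gbp10 (84.1%) also shared most of theirs, so the 10 GTPase paralogs are not independent. Of 8 Schlafen and Phf11 paralogs 1 fell in mutant nTregs (12.5%, against 15.6% of all genes), Slfn10-ps at -0.24. That call was lost in 7 of the 12 fits that left out a library, with values of -0.27 to -0.17. In iTregs 2 rose (25%, against 14%), Slfn10-ps (0.51) and Slfn9 (0.57).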

How the data were processed

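Stranded mRNA libraries of nTregs and iTregs were compared by genotype. Per the file headers, the authors deposited whole-number counts per gene, made by featureCounts 1.5.2 over exons of the Ensembl release 87 annotation of GRCm38, reverse-stranded, with multi-mapping reads included. Per the submitters' processing notes, bcl2fastq 2.18.0.12, STAR 2.5.2b, Subread 1.5.2 and build mm10 were used. Per the labels' protocols, libraries were TruSeq Stranded mRNA. Trimming is not given in the sources used here.

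Counts entered edgeR 4.0.16 in R 4.3.3 (filterByExpr, 17977 genes kept, TMM scaling, 1 mean per group, 8 residual degrees of freedom, and the two-sided quasi-likelihood F-test). The Benjamini-Hochberg adjustment covered all genes kept in each comparison, the threshold was 0.05, and standard errors come from the F statistic. Chi-square per degree of freedom between same-group libraries was 4.48 to 51.5, so none was a duplicate. Nothing says that they are separate animals. The fit was tested on simulated data. GENCODE M21 transcripts gave the shared 50-base stretches, and 34 of 45 RefSeq promoter entries of the 48 genes matched a transcript on the same strand and 0 on the opposite strand.

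Every gene of the set that passed in a genotype comparison was named (with over 12, the 12 smallest adjusted p in full), with 6 of the largest changes between WT groups, 10 genes fixed by name, and up to 3 per other list. One of the genes fixed by name is not reported here. The genes, lists and rules were chosen with earlier results of these data known. Of the listed genes outside the set, 3 found no identifier. Alternatives were DESeq2 1.42.0, other scaling and filters, fewer libraries in the fit, a replicate block, and leaving out each library.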

Additional observations from a re-analysis of the deposited data

Results flagged for a closer look

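For 17 genes named in the report the genotype effect differed between cell types by the interaction test (edgeR, adjusted p below 0.05), given here as the log2 difference, iTreg minus nTreg. Members of the set were Mx1 (1.51), Rtp4 (1.03), Ifi206 (0.91), Ifi213 (0.79), Slfn5 (0.76) and Slfn8 (0.57). Other genes with a higher ratio in iTregs were Tlr7 (1.36), Gbp2b (1.31), Slfn10-ps (0.76), Trim25 (0.69), Ifnar1 (0.52) and Jak1 (0.33). Those with a lower ratio in iTregs were Ifitm1 (-3.46), Ifitm2 (-1.77), Socs1 (-0.82), the targeted gene Gclc (-0.65) and H2-D1 (-0.42).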

How the results depend on the processing

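Of 37 calls of single interferon-response genes, 24 were kept in all alternatives and 13 were lost in at least 1, and no direction reversed. In nTregs, 2 were higher, against 4 when scaled by library size alone, 5 with no filter, 4 by DESeq2 and 5 with only the compared libraries (2 to 6 leaving out each library), and 12 were lower (9 to 13). In iTregs, 7 were higher (3 to 8) and 4 lower, against 2 with no filter (1 to 5). For the difference, 6 were higher (4 to 10, with 10 without mutant iTreg library 4) and 0 lower, against 2 when scaled by library size alone (0 to 0). For WT iTregs against WT nTregs, 0 were higher and 46 lower (46 to 47). Library size alone moved the share of calls that were higher from 55.4% to 65.4% in nTregs and from 55.2% to 35.5% in iTregs. Same-numbered libraries of different groups correlated at -0.06 to 0.05. These are correlations of deviations from means of 3 libraries, which cannot exclude a shared mouse or batch, and the labels do not say whether the numbers pair libraries. With the replicate block, 1 gene was lower in iTregs in place of 4, and calls over all genes went from 4561 to 3036 in iTregs and from 2392 to 1471 for the difference. Replicate number 3 occurs only in WT and number 4 only in mutant libraries, so the block is partly confounded with genotype. Genotype calls lost with it therefore cannot be read as the effect of a batch or of pairing. The block also ended the nTreg calls of Ifit2, Oas2 and Ddx58 (adjusted p 0.0754 to 0.085), the iTreg calls of Xaf1, Stat2, Ddx60 and Gbp3 (0.0621 to 0.178) and the Mx1 difference (0.0875). Calls over all genes fell as low as 1770 in iTregs (without WT iTreg library 1) and 1104 for the difference (without WT nTreg library 2). The cause of these shifts was not tested. Genes with few counts in iTregs limit what could be seen there.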
